A study of Wolfiporia cocos with 12 samples.

Results

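Glycoside hydrolase family 5 (GH5) models whose transcript level on wood was flat or lower than on glucose are described here in the brown-rot fungus Wolfiporia cocos, strain MD-104. There are 6 of them, with protein IDs 135575, 137702, 144596, 163524, 164321 and 140649, among 17 models labelled GH5 and 12746 gene models in all. They were selected on measured values: their level in RPKM (reads scaled to model length and library depth) on pine and aspen was taken to be equal to or below that on glucose. The wood and glucose values are therefore a description, and no test of wood against glucose is given for these 6. In the data, 4 of the 6 had lower means on both woods than on glucose. The means of 164321 and 140649 were 1.08 to 1.18 times glucose on wood, so these models are flat and not lower. The 6 are a pick and not every GH5 model of that kind, since 141870, 79891, 26252 and 130689 also had means below glucose on both woods.

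Shake cultures were grown for 5 days, 3 per medium, and each culture gave 1 library. The groups were pine (ground lodgepole pine, Pinus contorta, at 0.5% w/v), aspen (ground Populus grandidentata at 0.5% w/v), Avicel (a microcrystalline cellulose, in defined medium) and glucose (in defined medium). All groups share the strain, and the series asks how transcription changes as the fungus colonises wood. Pine and aspen libraries ran on lane 2 and Avicel and glucose libraries on lane 1, per the labels, so lane and wood against defined medium cannot be told apart. Library depth, recovered from the spacing of the values, ran from 17.4 to 22.4 (in 1e6 reads) on pine, 15.4 to 23.3 on aspen, 15.3 to 19.7 on Avicel and 17.4 to 21.3 on glucose. A count of 3 reads in 1 kb equalled 0.129 to 0.195 RPKM, far below every value of the 6 models, and this limit covers counting error only. The Avicel cultures differed widely in the GH5 model 141870, which is not among the 6. It had 95.8 RPKM in Avicel replicate 1 against 1247 and 2397 RPKM in Avicel replicates 2 and 3.

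Glycoside hydrolases cut the bonds between sugars, and GH5 is a large and mixed family of them. In fungi it holds endoglucanases that cut within cellulose chains and mannanases that cut softwood glucomannan. It also holds glucanases that act on the beta-glucan of the fungus's own cell wall. Brown-rot fungi lack many of the cellulases found in white-rot fungi, and GH5 endoglucanases are among the enzymes they keep. A family label does not say which of these substrates a model acts on.

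The deposited annotation splits the 6 models by the domain hit that carries the label. For 137702, 163524, 164321 and 140649 the hit was the PROSITE family 5 signature PS00659, a short pattern around the catalytic site, over 10 residues. It lay at residues 121 to 130, 159 to 168, 219 to 228 and 326 to 335 in that order. The other two, 135575 and 144596, were labelled from the Pfam domain PF00150 (cellulase), at residues 64 to 200 and 179 to 258. These hits spanned 137 and 80 residues, whereas the PF00150 hits of 10 other GH5 models spanned 219 to 369 residues. The signature hit occurred in 4 of the 6 models and in 1 of the 11 other GH5 models, 101537. The table gives 1 hit per model, so a model listed by the signature may also hold the domain. A signal peptide probability, the mark of a secreted protein, was deposited for 3 of the 6 models: 1 for 135575, 0.994 for 144596 and 0.995 for 164321. It was deposited for 4 of the 11 other GH5 models. No sequence is printed, since the files used here hold none.

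Model 135575 was the most abundant of the 6 in every library. It lies on scaffold 1 at 4048377 to 4051723, minus strand, in the deposited coordinates (genome build not given in the sources used here). It had 80.6, 99.5 and 117 RPKM in the pine libraries, and 111, 95.8 and 68.9 RPKM in the aspen libraries. It had 235, 184 and 250.2 RPKM in the Avicel libraries, and 269, 258 and 206 RPKM in the glucose libraries. Every wood library lay below every Avicel and glucose library, while the woods overlapped each other and Avicel overlapped glucose. Means were 99.0 ± 18.1, 92.0 ± 21.5, 223 ± 34.6 and 244 ± 33.9 RPKM on pine, aspen, Avicel and glucose (SD, n = 3 each). Among all models the mean stood at percentile 89.4 on pine, 88.7 on aspen, 95.6 on Avicel and 96.1 on glucose. In RNA from whole cultures, fewer cells that express a gene and less RNA per cell cannot be told apart.

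Model 137702 lies on scaffold 5 at 1355858 to 1357351, plus strand. It had 21.6, 27.2 and 19.4 RPKM on pine, and 36.2, 35.0 and 31.3 RPKM on aspen. It had 77.9, 74.6 and 53.0 RPKM on Avicel, and 53.8, 61.7 and 87.7 RPKM on glucose. The 3 pine libraries were the lowest, the 3 aspen libraries came next without overlap, and Avicel and glucose overlapped above both. It spread the most among the 6, with 4.52 times as much in its highest library as in its lowest.

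Models 144596 and 163524 stood somewhat below the middle of all models on every medium, at percentiles 36.6 to 46.5 and 39.0 to 44.9. Model 144596 (scaffold 7, 1024074 to 1025829, minus strand) had 5.81, 4.39 and 3.49 RPKM on pine and 6.15, 6.61 and 5.46 RPKM on aspen. It had 7.29, 9.06 and 8.14 RPKM on Avicel and 9.08, 10.9 and 9.83 RPKM on glucose. The order ran glucose, Avicel, aspen, pine, and of the neighbours in that order only aspen and pine overlapped. Model 163524 (scaffold 5, 1359375 to 1360873, plus strand) kept the same order of means with a narrower spread. It had 5.38, 5.88 and 5.48 RPKM on pine and 5.40, 5.095 and 7.27 RPKM on aspen. It had 6.18, 8.83 and 7.34 RPKM on Avicel and 10.0, 9.135 and 7.745 RPKM on glucose. Each medium overlapped its neighbour in the order, while pine lay below Avicel and both woods lay below glucose.

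Models 164321 and 140649 are the flat ones. Model 164321 (scaffold 6, 2159439 to 2163567, minus strand) had 9.88, 7.91 and 7.095 RPKM on pine and 7.60, 8.745 and 7.81 RPKM on aspen. It had 5.39, 7.46 and 6.62 RPKM on Avicel and 7.70, 6.195 and 7.20 RPKM on glucose. All neighbouring media in its order overlapped, and its highest library held 1.83 times as much as its lowest. Model 140649 (scaffold 16, 686234 to 690458, minus strand) had 35.9, 32.7 and 28.8 RPKM on pine and 34.8, 30.0 and 36.0 RPKM on aspen. It had 27.4, 27.4 and 18.8 RPKM on Avicel and 31.2, 29.6 and 29.6 RPKM on glucose. Pine, aspen and glucose overlapped, and the 3 Avicel libraries lay below all the others.

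**Figure D1:**
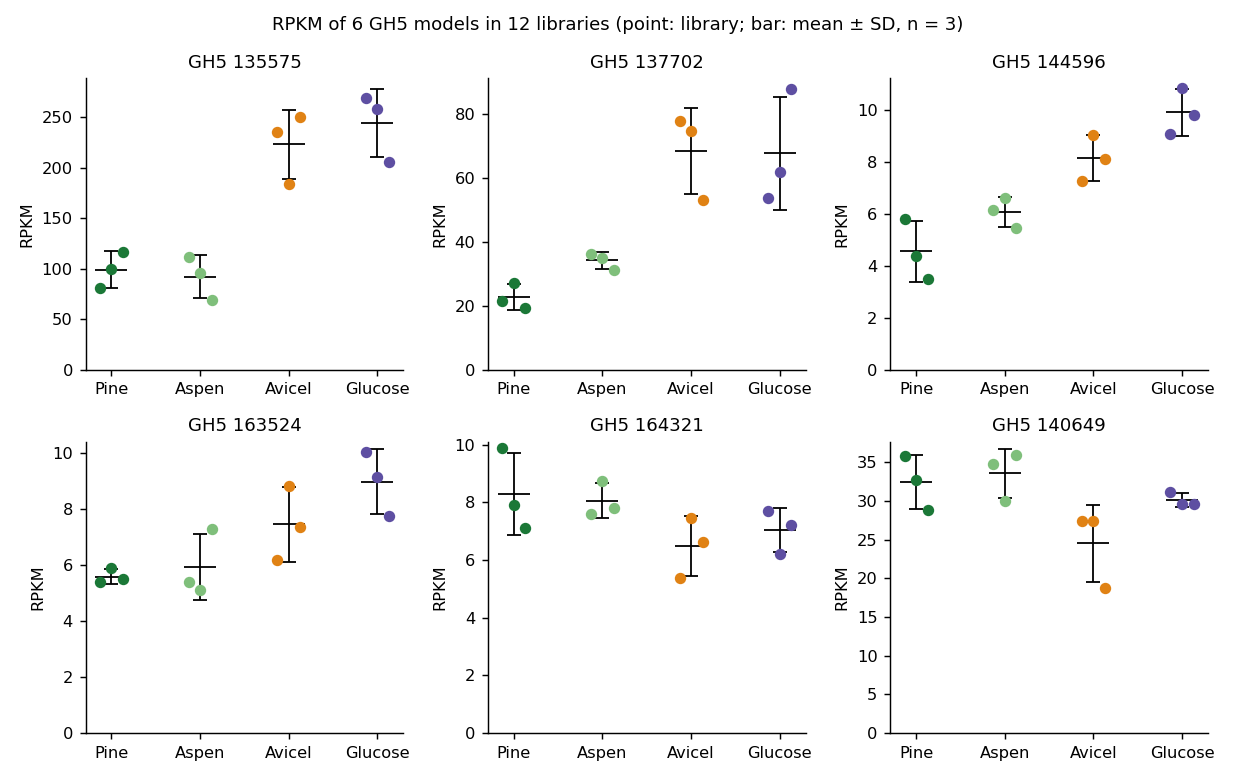
RPKM (vertical axes, from 0) of each of the 6 models in 3 libraries per medium, with points for libraries and bars for mean ± SD. The wood libraries of 135575, 137702, 144596 and 163524 lie below their glucose libraries, whereas those of 164321 and 140649 overlap glucose.

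The differences that define the 6 models are given on the scale of log2(RPKM + 1), with standard errors (SE) from a limma fit over all 10184 models tested. Against glucose, 135575 was lower by -1.30 on pine and -1.42 on aspen (SE 0.20). The values of 137702 were -1.52 on pine and -0.94 on aspen (SE 0.20). Those of 144596 were -0.99 on pine and -0.63 on aspen, and those of 163524 were -0.59 on pine and -0.53 on aspen (SE 0.17 each). For 164321 they were 0.20 and 0.18 (SE 0.16), and for 140649 0.10 and 0.15 (SE 0.15). Both comparisons share the 3 glucose libraries. Over all tested models the median difference was -0.14 on pine and -0.12 on aspen. With each library centred on its median, the pine values ran from -1.42 for 137702 to 0.30 for 164321 and the aspen values from -1.32 for 135575 to 0.27 for 164321, with no change of sign. Of the 6, 4 had no overlap with glucose and were lower, on pine and on aspen alike. Of all tested models 30.5% lay lower without overlap on pine and 29.8% on aspen, and 11.8% passed the call on each wood in either direction. Nothing is read from that count, since these values chose the models. A call here is an adjusted p under 0.05 with a fold of at least 2.

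Around the limit of the rule, 163524 was at 0.622 times glucose on pine and 0.66 on aspen. Models 140649, at 1.08 and 1.11, and 164321, at 1.18 and 1.15, are listed although above glucose on both woods. Of the unlisted GH5 models, 72878 was at 1.12 times glucose on pine and 0.873 on aspen, and 101537 at 1.31 and 2.11. Unlisted GH5 models below glucose on both woods were 130689 (0.912 on pine, 0.823 on aspen), 79891 (0.68, 0.667), 26252 (0.919, 0.618) and 141870 (0.198, 0.111). These ratios thus do not separate the listed models from the others. The first pair averaged at most 2.73 RPKM on any medium.

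**Figure D2:**
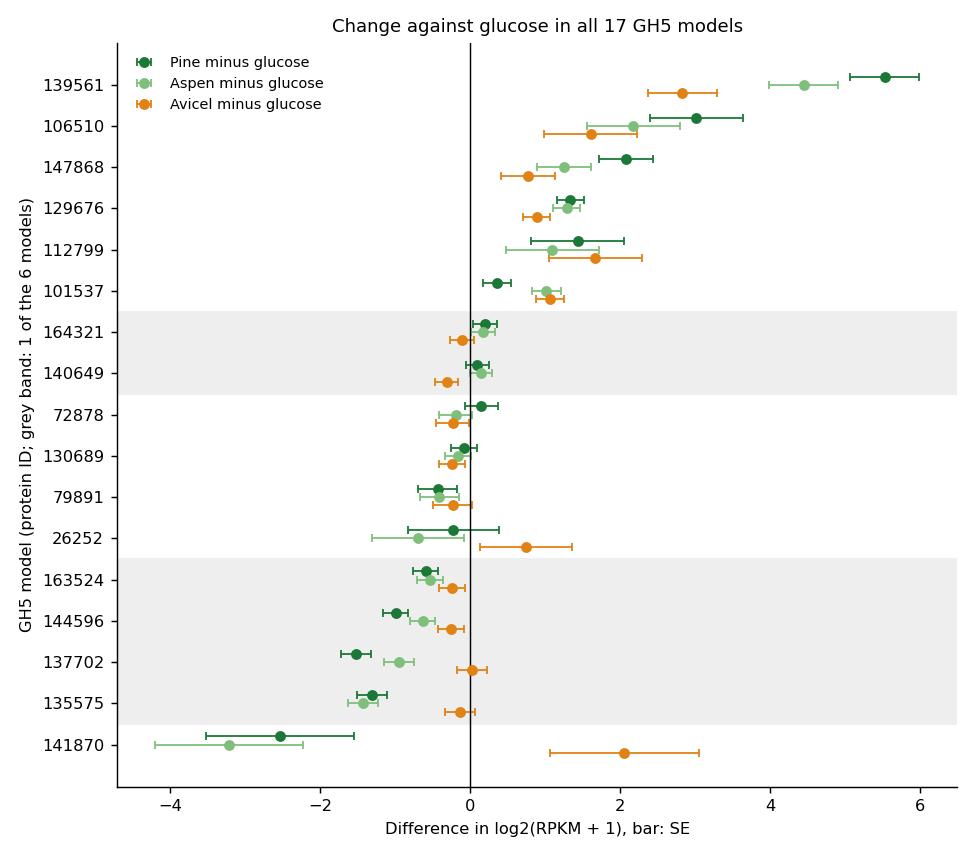
Difference from glucose in log2(RPKM + 1) for all 17 GH5 models (horizontal axis; bar: SE), with pine, aspen and Avicel drawn from top to bottom in each row and grey bands on the 6 models. Pine and aspen values of the 6 run from -1.52 to 0.20, and their Avicel values stay between -0.31 and 0.03.

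Avicel and glucose ran on the same lane, and Avicel values were not used to pick the models, although the glucose values were. None of the 6 passed the test on Avicel: limma with Benjamini-Hochberg adjustment called 0 of 6, and 0 had an unadjusted p under 0.05. Over all tested models, 1.67% were called and 23.5% had an unadjusted p under 0.05. The largest difference was that of 140649, at -0.31 (SE 0.15, 95% interval -0.64 to 0.03, limma adjusted p = 0.252). Without Avicel replicate 3, its lowest library, that difference was -0.13. For 137702 the difference was 0.03 (SE 0.20, 95% interval -0.41 to 0.47, limma adjusted p = 0.949). For 135575 it was -0.13 (SE 0.20, -0.58 to 0.31), for 144596 -0.25 (SE 0.17, -0.62 to 0.11), for 163524 -0.24 (SE 0.17, -0.61 to 0.12) and for 164321 -0.11 (SE 0.16, -0.46 to 0.24). The intervals of 135575, 137702, 163524, 164321, 144596 and 140649 all lie inside a 2-fold change, which is 1 on this scale. The median difference of the 6 was -0.19, beside -0.18 over all tested models. With each library centred on its median, the values ran from -0.13 for 140649 to 0.20 for 137702, and those of 135575 and 164321 turned positive, at 0.04 and 0.06. Models 144596 and 140649 were lower on Avicel without overlap, and 24.6% of all tested models were too. Without Avicel replicate 1, the culture with little 141870, the differences ran from -0.39 for 140649 to 0.00 for 164321, and none was called.

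Pine and aspen share the other lane, and the rule did not set one wood against the other. Of the 6 models, limma called 0 between the woods, and 1 had an unadjusted p under 0.05; 0.157% of all tested models were called and 6.84% had an unadjusted p under 0.05. That model was 137702, which averaged 22.7 ± 4.03 RPKM on pine and 34.2 ± 2.53 RPKM on aspen (SD, n = 3 each). Its difference of -0.58 (SE 0.20, 95% interval -1.02 to -0.14, unadjusted p = 0.0146) did not pass the correction (limma adjusted p = 0.512), though all 3 pine libraries lay below all 3 aspen libraries. A lower value without overlap was found for 6.72% of all tested models. Model 144596 was at -0.36 (SE 0.17, 95% interval -0.73 to 0.00, limma adjusted p = 0.73). The other 4 differed by -0.06 to 0.12, with intervals between -0.43 and 0.56. The median over the 6 was -0.05, and -0.01 over all tested models.

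The contrasts of wood against Avicel use the wood libraries that chose the models and also cross the lanes, so they are descriptions too. On pine the differences from Avicel were -1.17 for 135575, -1.54 for 137702, -0.74 for 144596, -0.35 for 163524, 0.31 for 164321 and 0.41 for 140649. On aspen they were -1.28, -0.97, -0.37, -0.29, 0.28 and 0.45 in the same order. Of the 6, 4 were lower without overlap on pine and 3 on aspen, where 14.1% and 13.8% of all tested models were. Model 140649 was higher on both woods without overlap, and 164321 on aspen (20.9% of all tested models on pine, 21.4% on aspen). These comparisons share the Avicel libraries.

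Across the 12 libraries, 135575, 137702, 144596 and 163524 varied together, with Pearson's r of 0.656 to 0.869 between pairs on the log2(RPKM + 1) scale. The closest pair was 137702 and 144596. Between 164321 and 140649 r was 0.53, and between either of these and any of the 4 it ran from -0.24 to -0.702. The libraries share depth, lane and medium. The 4 and the flat pair were also told apart by these same wood and glucose values, so the correlations describe the pick.

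Labelled genes outside the 6 with the most similar profiles were named by the same measure over 12 libraries, among all tested models with a label. For 135575 they were 134844 (haloacid dehydrogenase/epoxide hydrolase, r 0.95), 156209 (phosphatidylserine decarboxylase-related, 0.946) and 146373 (AAA ATPase, 0.944). For 137702 they were 120009 (sterol desaturase, 0.957), 22983 (peptidase S53, 0.936) and 136696 (CobW-like, 0.935). For 144596 they were 85692 (helix-turn-helix type 3, 0.94), 155400 (cytochrome P450, 0.931) and 132379 (endonuclease/exonuclease/phosphatase, 0.925). For 163524 they were 104404 (BTB/POZ-like, 0.931), 15127 (double-stranded RNA binding, 0.925) and 140503 (aromatic-ring hydroxylase, 0.922). For 140649 they were 97746 (C2H2 zinc finger, 0.963), 139043 (nuclear transport factor 2, 0.95) and 101159 (AAA ATPase, 0.948). The likest profiles to 164321 were less close, at 0.878 for 27042 (aspartate/glutamate/uridylate kinase), 0.862 for 123970 (multicopper oxidase) and 0.86 for 85674 (dual-specificity phosphatase). Pearson's r does not measure the size of a change. Model 123970 was at 3.73 times glucose on pine and 3.81 on aspen, where 164321 was at 1.18 and 1.15. Model 134844 was at 0.0273 and 0.0459, where 135575 was at 0.405 and 0.377. No glycoside hydrolase was among the 18 genes named by profile. The share of glycoside hydrolases among the models searched was not counted, so nothing is read from this.

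Models 137702 and 163524 are neighbours on scaffold 5, on the same strand and 2023 bases apart. Another GH5 model, 101537, lies upstream at 1351731 to 1352831 on the same strand, with the unlabelled 119951 between it and 137702 on the opposite strand. All 3 GH5 models of this run carry the PS00659 hit. Model 101537 had 14.0, 19.97 and 14.3 RPKM on pine, 28.2, 26.1 and 23.4 on aspen, 21.7, 31.6 and 27.6 on Avicel and 11.6, 10.5 and 14.8 on glucose. It rose on Avicel against glucose by 1.07 (SE 0.19, limma adjusted p = 0.0117), in a comparison within 1 lane. The call was lost without Avicel replicate 2 (0.95) or glucose replicate 2 (0.97, limma adjusted p = 0.0573), and with a pseudocount of 5 (0.88). On pine against aspen 101537 was at -0.67 (unadjusted p = 0.00371, limma adjusted p = 0.3), beside -0.58 for 137702 and -0.06 for 163524. Thus within the run 101537 was called higher on Avicel, while 137702 stood at 0.03 and 163524 at -0.24, and the differences between genes were not tested.

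The other models at this locus are 119951, within the run, and 163525, beyond it. Model 119951, 421 bases from 137702, averaged 16.5 RPKM on pine, 20.1 on aspen, 23.2 on Avicel and 25.3 on glucose. Its order of means was that of 163524. Against glucose it was at -0.60 on pine (SE 0.19, limma adjusted p = 0.0372) and -0.32 on aspen (limma adjusted p = 0.242), across lanes. It was not called, since the pine difference fell short of 2-fold. The ankyrin-repeat model 163525 lies 2682 bases beyond 163524 on the opposite strand and is labelled with a protein-binding repeat. It had 8.72, 35.4 and 12.7 RPKM on pine and 10.5, 17.03 and 12.6 on aspen, against 2.35, 1.94 and 1.42 on glucose. It rose by 2.56 on pine (SE 0.47, limma adjusted p = 0.00229) and by 2.29 on aspen (SE 0.47, limma adjusted p = 0.00446), across lanes. Its neighbour 163524 had 5.58 ± 0.264 RPKM on pine, 5.92 ± 1.18 on aspen and 8.97 ± 1.15 on glucose (SD, n = 3 each).

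**Figure D3:**
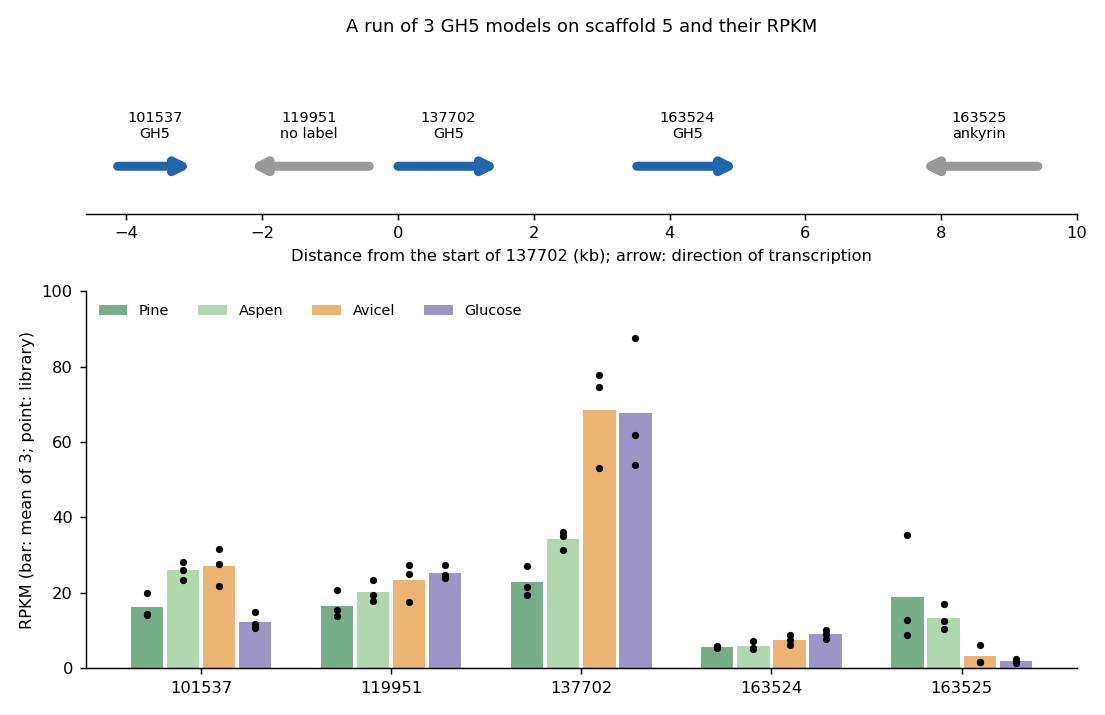
Above, the 3 GH5 models on scaffold 5 (blue) and their neighbours (grey) by distance from the start of 137702 in kb, with arrows for strand. Below, RPKM in each library (points) and mean (bars): 137702 is lowest on pine, 101537 has 21.7 to 31.6 RPKM on Avicel and 10.5 to 14.8 on glucose, and 163525 is highest on wood.

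Reads behind the values could be recovered for models whose values were whole multiples of 1 read. This held for 137702 (418 to 1804 reads per library), 140649 (1008 to 2294), 144596 (70 to 228) and 163524 (99 to 270). Counting error was 2.59% to 4.49% for 137702 and 2.38% to 2.95% for 140649, against 6.93% to 10.4% for 144596 and 6.86% to 8.65% for 163524, as the average of each medium. For 137702 on glucose the spread between cultures was 26.1% against 2.59% from counting. For 144596 on aspen it was 9.58% against 8.69%, so counting error was nearly as large as the spread. For 163524 on pine the spread of 4.74% was below the counting error of 8.65%.

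No whole reads were found for 135575 and 164321, the 2 of the 6 that overlap another model. Over the table, whole reads were recovered for 22.1% of models that overlap another and 83.3% of those that do not. Model 135576, on the opposite strand, lies wholly inside 135575 over 1380 bases, and its means ran from 0.456 to 0.673 RPKM. Model 138243, also on the opposite strand, overlaps 164321 by 1163 bases and averaged 11.4 RPKM on pine, 13.3 on aspen, 11.5 on Avicel and 14.3 on glucose, with no call. Whether counting used the strand is not stated, so the values of 135575 and 164321 may include reads of their partners. Model 135576 stayed under 1 RPKM, whereas 138243 exceeded 164321 in mean on every medium. The levels of these partners depend on the handling of shared reads too. How much partner reads add to 135575 or 164321 was not tested.

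Summed over the 6 models, RPKM averaged 173 ± 11.9 on pine, 180 ± 22.0 on aspen, 338 ± 24.0 on Avicel and 368 ± 17.6 on glucose (SD, n = 3 each). Model 135575 made up 50.6% to 72.7% of the sum in every library but aspen replicate 3, so the sum mostly follows that model. The 6 took 20.3% to 32.3% of the summed RPKM of all 17 GH5 models on pine and 30.3% to 43.3% on aspen. Their share was 51.3% to 61.7% on glucose. On Avicel it was 64.1%, 16.9% and 10.6% in replicates 1 to 3, while the sum of the 6 itself varied little there (359, 312 and 344 RPKM). The other part of the Avicel spread is chiefly 141870.

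**Figure D4:**
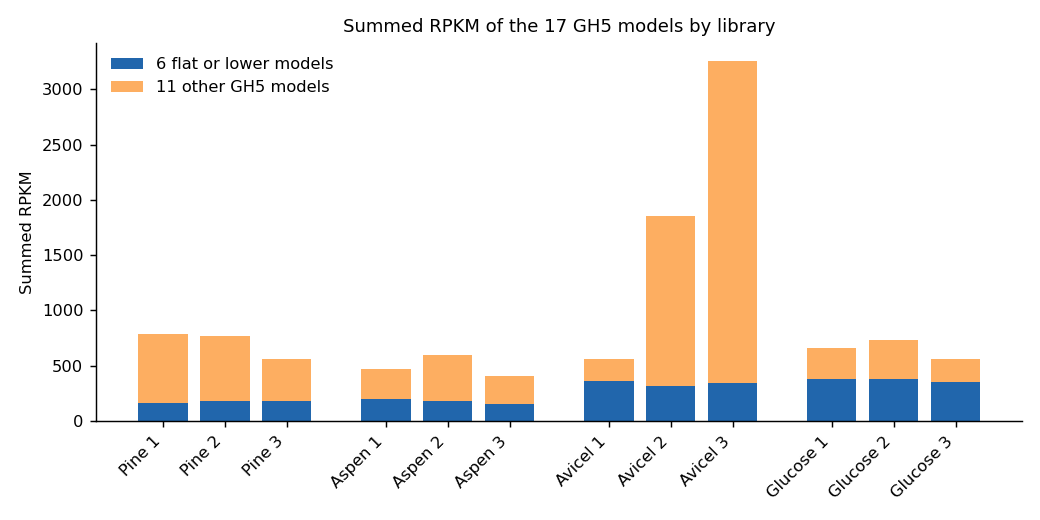
Summed RPKM (vertical axis, from 0) of the 6 models (blue) and the 11 other GH5 models (orange) in each library. The blue part averages 173 on pine, 180 on aspen, 338 on Avicel and 368 on glucose, while the orange part differs widely between Avicel cultures.

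The 11 other GH5 models are what remained of the family after the 6 had been taken out. On Avicel against glucose limma called 2 higher and 0 lower, where 0.962% of all tested models were called higher. Of the 11, 5 had an unadjusted p under 0.05, beside 23.5% of all tested models. The count called higher was 5 without Avicel replicate 1 and 1 without Avicel replicate 2 or glucose replicate 2. On pine against glucose 4 were called higher and 0 lower, and on aspen 5 higher and 1 lower, across lanes. Taking out models with low wood values raises these shares among the rest, so they are a description, and nothing is read from them against the 5.61% of all tested models called higher on pine and 5.24% on aspen, or the 6.2% and 6.56% called lower. The aspen counts were 2 to 5 higher and 0 lower without any 1 aspen or glucose library, with 2 when glucose replicate 1 was left out and 3 without aspen replicate 2 or glucose replicate 3. Between pine and aspen 0 were called, with 3 at an unadjusted p under 0.05, beside 0.157% and 6.84% of all tested models. Their median difference from glucose was 0.89 on Avicel; on wood, where the rule acted, it was 0.36 on pine and 1.02 on aspen.

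A list of 11 models labelled for the fungal wall's own beta-glucan (glucan synthase and SKN1 labels and families GH16, GH17, GH55, GH71, GH72, GH81 and GH85) is set beside the 6, since some GH5 enzymes of fungi act on that polymer. In none of the 6 comparisons did limma call any of these 11. Of all tested models 11.8% were called on each wood against glucose, 1.67% on Avicel against glucose and 0.157% on pine against aspen. Of 10184 models, 464 were called higher and 455 lower on pine against Avicel, and 357 and 379 on aspen against Avicel. A count of 0 of 11 is near these shares, so nothing is read from it. At an unadjusted p under 0.05 there were 6 of 11 on pine against glucose and 5 of 11 on aspen against glucose, beside 39.0% and 38.0% of all tested models. There were 3 of 11 on Avicel against glucose and 1 of 11 on pine against aspen, beside 23.5% and 6.84%. There were 2 of 11 on pine against Avicel and 5 of 11 on aspen against Avicel, beside 33.7% and 31.7%. Median differences were -0.35 on pine, -0.30 on aspen and -0.33 on Avicel against glucose, and -0.11 on pine against aspen, 0.02 on pine against Avicel and 0.09 on aspen against Avicel. With libraries centred on their medians, the differences from glucose became -0.25 on pine, -0.20 on aspen and -0.16 on Avicel, and that of pine from Avicel became -0.05.

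Protein was scored for 1 of the 6 models, 135575 (47 kDa), and for 4 of the 11 other GH5 models, among 704 proteins with a score. The score, emPAI, rises with the number of peptides seen for a protein, and the authors deposited 1 value per medium, so there is no replicate. For 135575 it was 1.11 on pine from 4 peptides, 0.559 on aspen from 3, 0.355 on Avicel from 2 and 0.233 on glucose from 2. That is 4.76 times glucose on pine, 2.4 times on aspen and 1.53 times on Avicel, while its RPKM was 0.405, 0.377 and 0.914 times glucose. The score and the transcript of 135575 thus ran in opposite orders between wood and glucose. The emPAI columns were scaled to the same sum, which applies the same factor to all proteins of a medium. The score can also differ between media at equal numbers of peptides, by ratios that differ between proteins. The GH5 model 147868, with 2 peptides on every medium, was at 1.33 times glucose on pine, 1.17 on aspen and 1.53 on Avicel. Model 141870, with 4 peptides on every medium, was at 0.343, 0.343 and 0.397. What sets these ratios, and how much of those of 135575 comes from the scaling, was not tested. Among proteins scored on both media whose mean RPKM was lower on pine than on glucose, 46.3% of 231 had a higher emPAI on pine, and on aspen it was 49.0% of 251. Among those with at most 0.5 times the RPKM of glucose it was 22.7% of 44 on pine and 26.9% of 52 on aspen. The counts rest on single values of few peptides, and no test was made.

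**Figure D5:**
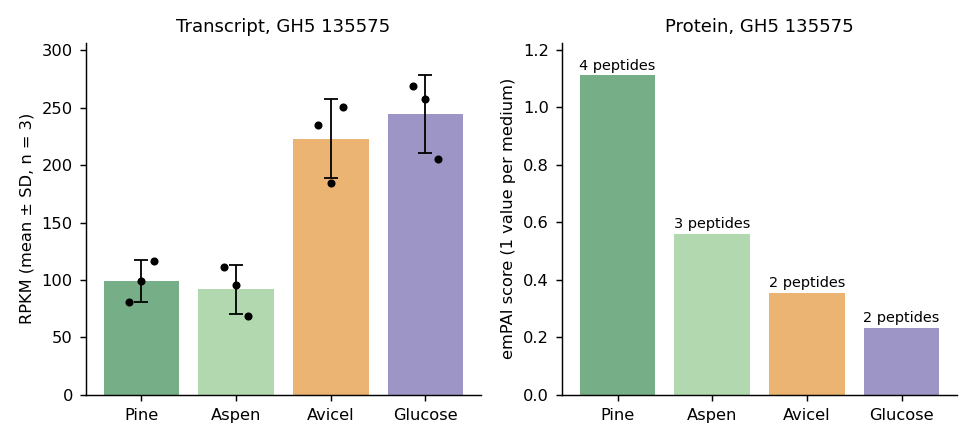
Left, RPKM of 135575 by medium (bars: mean ± SD, n = 3; points: libraries). Right, its emPAI score, 1 value per medium, which is 1.11 on pine and 0.233 on glucose where the RPKM means are 99.0 and 244.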

How the data were processed

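RNA was measured by poly-A RNA sequencing in 12 libraries, 3 per carbon source. The authors deposited 1 table of 12746 models with a value per library, taken as RPKM; no header names the unit, which was inferred from the values. The submitters' processing notes list CASAVA 1.8.2. For the aligner, the counter and the build, nothing is given in the sources used here. The emPAI score was deposited by the authors as 1 value per medium, with columns scaled to the same sum. Signal peptide probability is a fraction deposited by the authors.

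Depth was recovered from the spacing of values: with whole-base lengths, 7171 of 10447 models above 0 in all 12 libraries (68.6%) gave whole reads within 0.05 reads (root mean square). The 10184 models whose mean reached 1 RPKM on some medium were tested on log2(RPKM + 1) with limma 3.58.1 (R 4.3.3), all 4 groups in a single fit, with empirical Bayes moderation and an intensity trend. The log2 scale with a pseudocount of 1 understates changes of low genes. Calls needed a Benjamini-Hochberg adjusted p under 0.05 and a 2-fold change. The fit was checked on simulated data. Labels name triplicate cultures, so p-values measure the spread between cultures.

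The 6 models, the gene lists and the naming rule were chosen with earlier results of these data known. All 6 passed the filter. Named were all members, their nearest neighbours, the 3 labelled models most correlated with each, and GH5 models near the rule's limit. Alternatives were other pseudocounts, no filter, median centring, quantile normalization, 2-group fits, no trend, a replicate block, no fold threshold and leaving out each library.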

Additional observations from a re-analysis of the deposited data

How the results depend on the processing

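In no alternative run was any of the 6 models called in Avicel against glucose or pine against aspen. The count was 0 under every setting, including the replicate block and leaving out each library. In the main fit 1.67% and 0.157% of all tested models were called in these comparisons. A count of 0 among 6 is near these shares, so nothing is read from it about stability. Replicate numbers did not pair the cultures: of 18 same-numbered pairs, 7 correlated above 0.1 (r -0.418 to 0.437). Over alternatives the lowest limma adjusted p was 0.185 for Avicel against glucose (140649) and 0.285 for pine against aspen (137702).

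Small differences changed sign. In Avicel against glucose, 135575 became 0.04 and 164321 0.06 with median centring, 164321 was 0.07 with quantile normalization, 137702 ran from -0.12 to 0.22 and 164321 from -0.20 to 0.00 with a library left out. In pine against aspen, leaving out a library gave -0.08 to 0.27 for 135575, -0.15 to 0.07 for 163524, -0.09 to 0.12 for 164321 and -0.12 to 0.03 for 140649. With a pseudocount of 5, 144596 was -0.65 for pine against glucose and -0.47 for pine against Avicel, since a larger pseudocount shrinks low values. Scaling libraries to a common median moved the glucose mean of 140649 to 28.3 RPKM. The chitin list had 0 calls for pine against Avicel with median centring, against 2 without; the cause was not tested. The other values, 42 counts of members called and 779 further values, kept their direction and side of the threshold or stayed within the replicate spread. Precision at low levels is limited by depth: 144596 rested on 70 reads in its lowest library.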

Other observations

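Other carbohydrate-active families were read in the same limma fit. Among all tested models, 5.61% were called higher on pine, 5.24% on aspen and 0.962% on Avicel against glucose, and 23.5% had an unadjusted p under 0.05 on Avicel. Of 9 models of the beta-glucosidase families GH1 and GH3, 7 were higher on pine and 5 on aspen against glucose. On Avicel 0 were called, with 5 at an unadjusted p under 0.05, and 2 without Avicel replicate 1; the aspen count was 3 without aspen replicate 2 or glucose replicate 3. Of 15 tested models labelled for chitin (GH18, GH20 and chitin synthase), 4 were higher on pine, 4 on aspen and 3 on Avicel against glucose. The Avicel count was 2 without glucose replicate 3. No list under this heading had a model called between pine and aspen. At an unadjusted p under 0.05 there were 5 of the beta-glucosidases, 2 of the hemicellulase families and 0 of the other lists under this heading. Of all tested models 6.84% were.

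Of 7 models in the hemicellulase families GH2, GH10, GH26 and GH27, 4 were higher on pine (5.61% of all tested models), 4 on aspen (5.24%) and 2 on Avicel (0.962%) against glucose. The Avicel count was 4 without Avicel replicate 1, 0 without glucose replicate 3 and 1 without Avicel replicate 2 or 3 or glucose replicate 1 or 2. On pine it was 2 without pine replicate 1 or 2 or glucose replicate 2 or 3, and on aspen 2 without aspen replicate 1 or 2 or any 1 glucose library. Of 2 GH61 models (lytic polysaccharide monooxygenases, which cut cellulose by oxidation), 1 was higher on pine and 1 on aspen, and the pine call was lost without pine replicate 1. Of 2 models in the list of endoglucanase and cellobiohydrolase families, 1 was lower on pine (6.2% of all tested models) and 1 on aspen (6.56%), and the pine call was lost without pine replicate 2 or 3 or glucose replicate 1 or 2. On Avicel 0 models of these last pairs were called and 0 had an unadjusted p under 0.05. Wood and lane cannot be told apart in the wood comparisons.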
